A study of Mus musculus with 18 samples.

Results

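The protein arginine methyltransferases are the enzymes that move methyl groups from S-adenosylmethionine to arginine residues of proteins. The family was taken by gene name and comprised 9 genes: Carm1, Prmt1, Prmt2, Prmt3, Prmt5, Prmt6, Prmt7, Prmt8 and Prmt9. By Ensembl identifier, 8 of the 9 were matched among the 46078 genes of the RNA-seq table, and the RNA of Prmt1 was not analysed here. ATAC-seq peaks lying from 5000 bp upstream of a gene to its end were assigned to it, which gave 31 of 111664 peaks, each assigned to 1 gene.

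The libraries came from lung tumors of mice in which Adenovirus-Cre, instilled through the trachea at 8 weeks of age, had started small cell lung cancer (SCLC), and the labels place the isolation of the cells 28 weeks later. RNA-seq counted reads on genes, and ATAC-seq counted reads where a transposase could cut open chromatin. There were 3 genotypes with 3 libraries per assay, 18 libraries in all, and the labels give 3 separate animals for each genotype. The study asked what the loss of CARM1, and of the single arginine of the transcription factor NFIB that CARM1 methylates, does to these tumors.

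All 3 genotypes carried the conditional alleles Rb1L/L and p53L/L and that of another retinoblastoma family gene, which is Rbl1L/L in the labels and Rbl2 in other text of the study. Mice with these alleles alone are the controls (TKO). CARM1 knockout tumors also carried Carm1L/L, so that Carm1 was lost where Cre had acted, and cells that Cre did not reach kept it. NFIB mutant tumors carried NfibR388K, a germline knock-in with lysine in place of the methylated arginine, which is present in every cell of the animal and does not depend on Cre. The mice had a mixed C57BL/6 and FVB129/N background, and neither the promoter that drove Cre in the virus nor the number of knock-in copies was given in the sources used here. The Methods describe sorting of the cells for tdTomato, a Rosa26 LSL reporter that Cre switches on, while the Results name biopsies and the ATAC-seq Methods also name cell lines. Values below are counts per 1000000 counted reads (CPM), scaled with edgeR's TMM factors. A library with 0 counts allows a level of up to 3 counts, which before TMM scaling was 0.143 to 0.189 CPM in RNA-seq and 0.0630 to 0.112 CPM in ATAC-seq, which covers counting error only.

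The members differ in the product they leave on the arginine. PRMT7 adds a single methyl group, PRMT5 and PRMT9 (type II) add a pair placed symmetrically, and the pair added by the other 6 members (type I) is asymmetric. Their substrates include histones, transcription factors, splicing factors and ribosomal proteins, and in SCLC the family drew attention because CARM1 methylates NFIB, a factor that opens chromatin in metastatic tumors.

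The libraries differed in more than genotype. Across genes, which are not independent replicates, TKO replicate 3 had a correlation of log2 CPM of 0.898 and 0.899 with the other TKO libraries in RNA-seq, and these had 0.956 with each other. In ATAC-seq the same library had 0.833 and 0.834, and the other pair 0.940. CARM1 knockout replicate 3 had 0.879 and 0.871 with its group in RNA-seq, where the other pair had 0.937. Libraries of the mutants correlated with each other about as closely as within a genotype, up to 0.942 in RNA-seq and 0.910 in ATAC-seq, and TKO libraries correlated with mutant libraries at 0.734 and 0.502 at most. In RNA-seq, reads with no feature made up 9.995 to 12.2% of the entries of TKO libraries and 3.65 to 5.17% of those of all 6 mutant libraries, without overlap, and the part of this in the RNA results was not tested.

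Markers of cell types moved with genotype as well. The 12 neuroendocrine markers, which are typical of SCLC, summed to 1944, 1810.0 and 4371 CPM in TKO, 59.2, 189 and 2138 CPM in CARM1 knockout and 45.0, 33.7 and 51.3 CPM in NFIB mutant libraries (replicates 1, 2 and 3, the order used throughout). The sum was high in all TKO libraries and in CARM1 knockout replicate 3, but single markers differed. Scg2 gave 1841 CPM of the sum in TKO replicate 3. In CARM1 knockout replicate 3 Calca gave 832 CPM, against 21.9, 11.4 and 5.13 CPM in TKO, while Insm1 (83.8 CPM), Uchl1 (181 CPM) and Scg3 (71.7 CPM) lay below all TKO libraries. Ncam1 gave 149 CPM of the sum in CARM1 knockout replicate 2, close to the lowest TKO library (159 CPM). Of the 12 markers, edgeR called 1 (Uchl1) lower in CARM1 knockout tumors, and for NFIB mutant tumors 11, where DESeq2 called 0 and 6. The 6 fibroblast markers ran the other way, with sums of 11.1, 26.6 and 63.3 CPM in TKO, 16997, 14434 and 25754 CPM in CARM1 knockout and 12553, 9464 and 15888 CPM in NFIB mutant libraries. Called higher by edgeR were 6 (CARM1 knockout) and 5 (NFIB mutant), and DESeq2 called 6 and 6. Between the mutants edgeR called 0 of all 15514 genes, markers included, while 11 of the 12 neuroendocrine markers had an unadjusted p under 0.05 (median log2 difference 6.26). DESeq2 called 3 of these, 1 leukocyte and 1 endothelium marker.

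Leukocyte markers (12 genes) summed to 58.0, 5.46 and 4.16 CPM in TKO, 1083, 252 and 2780.0 CPM in CARM1 knockout and 548, 1135 and 82.7 CPM in NFIB mutant libraries. Of the 9 that were tested, edgeR called 8 (CARM1 knockout) and 4 (NFIB mutant) higher, and DESeq2 called 8 and 8. Lung epithelium markers (10 genes, with Krt5 at or under 3 counts throughout) varied widely within genotypes, at 630.2, 400.1 and 282 CPM in TKO, 2.71, 54.1 and 523 CPM in CARM1 knockout and 2279, 91.4 and 1.08 CPM in NFIB mutant libraries. Most of the TKO sums was Nkx2-1 (600.1, 386 and 236 CPM), and Sftpb gave 1734 CPM of that in NFIB mutant replicate 1. Foxj1 was called lower in both mutants, and Sftpb, Sftpa1 and Cdh1 were called higher in NFIB mutant tumors. The 6 endothelium markers, with Cldn5 at or under 3 counts, summed to 21.3, 5.85 and 17.9 CPM in TKO, 13.2, 4.02 and 73.8 CPM in CARM1 knockout and 1.82, 12.2 and 2.09 CPM in NFIB mutant libraries. Cdh5 was called higher in both mutants and Kdr lower in NFIB mutant tumors. Markers of dividing cells (6 genes) summed to 2971, 2805 and 1764 CPM in TKO, 1629, 1536 and 1419 CPM in CARM1 knockout and 1648, 1781 and 1443 CPM in NFIB mutant libraries. Mki67 was called lower in both mutants and Top2a in CARM1 knockout tumors. In bulk libraries fewer cells of a type and less RNA per cell cannot be told apart, and the part of these differences in the results on the methyltransferases was not tested.

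**Figure D1:**
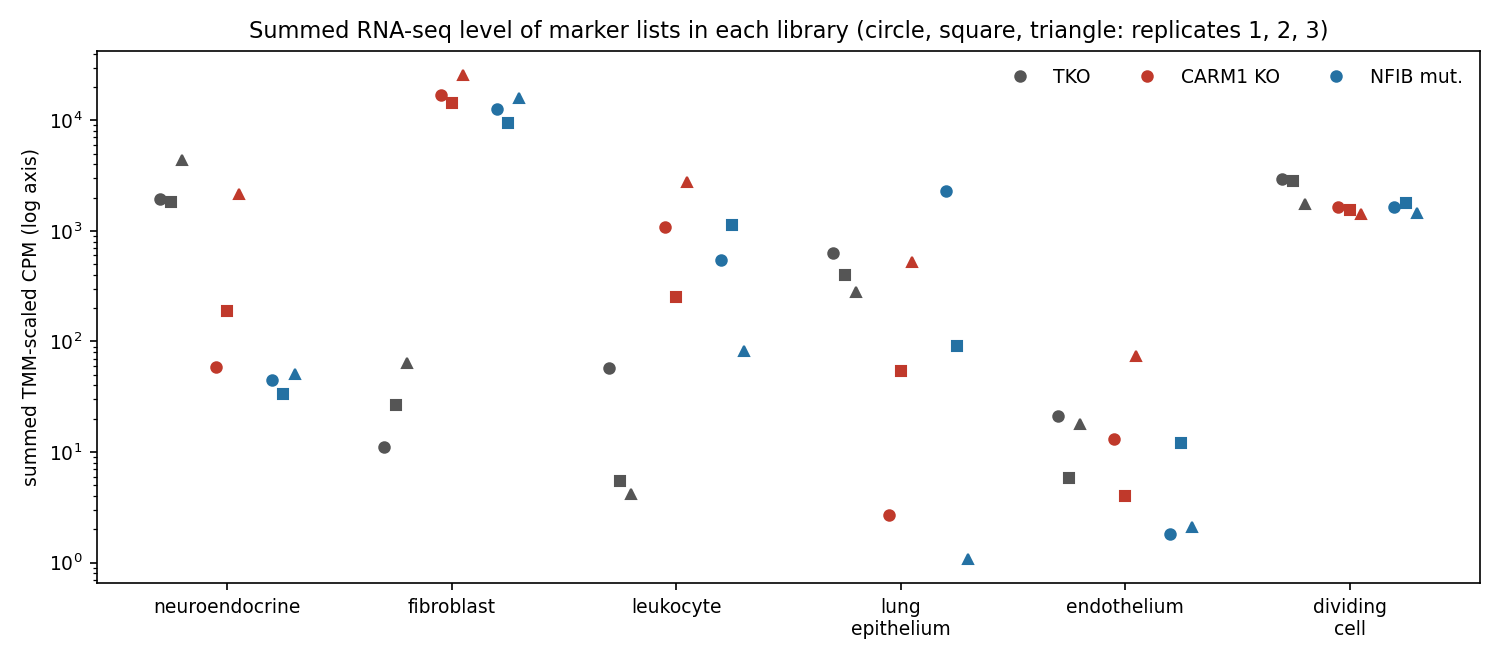
Summed TMM-scaled CPM of the marker lists in each RNA-seq library (log axis, 1 point per library, 3 libraries per genotype). Fibroblast markers reach at most 63.3 CPM in TKO and at least 9464 CPM in the mutants, and the neuroendocrine sum is below TKO in 5 of the 6 mutant libraries.

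Levels of different genes can be compared per kilobase of exon, here among the 8 members with RNA values, which leaves out Prmt1. By the mean, TKO tumors held the most RNA of Prmt5, at 20.5 ± 7.27 CPM per kilobase (SD, n = 3), followed by Carm1 at 16.8 ± 6.67 and Prmt2 at 12.3 ± 6.70. Prmt3 (7.19 ± 0.415) and Prmt7 (6.39 ± 1.99) came next, then Prmt9 (3.78 ± 0.518), Prmt6 (2.59 ± 0.701) and Prmt8 (0.780 ± 0.995). Neighbours in this order overlapped between libraries, except that Prmt9 lay below Prmt7 throughout. The order of levels in CARM1 knockout tumors was Prmt5 (24.98 ± 10.8), Prmt7 (15.4 ± 4.09), Carm1 (13.3 ± 2.92), Prmt2 (10.7 ± 1.94), Prmt3 (7.58 ± 0.232), Prmt9 (4.84 ± 0.590) and Prmt6 (2.75 ± 0.521), with Prmt8 near 0. There the first 4 genes overlapped from neighbour to neighbour and the others did not. NFIB mutant tumors had Carm1 (21.0 ± 0.376) and Prmt5 (20.3 ± 1.56) on top, without a gap between them, then Prmt2 (12.97 ± 2.96), Prmt7 (8.33 ± 1.90), Prmt3 (5.50 ± 0.620), Prmt9 (4.395 ± 1.28) and Prmt6 (2.08 ± 0.172). Prmt2 overlapped Prmt7 there and Prmt3 overlapped Prmt9, and the other neighbours were apart. Prmt7 was the fifth in this order in TKO tumors and the second in CARM1 knockout tumors.

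**Figure D2:**
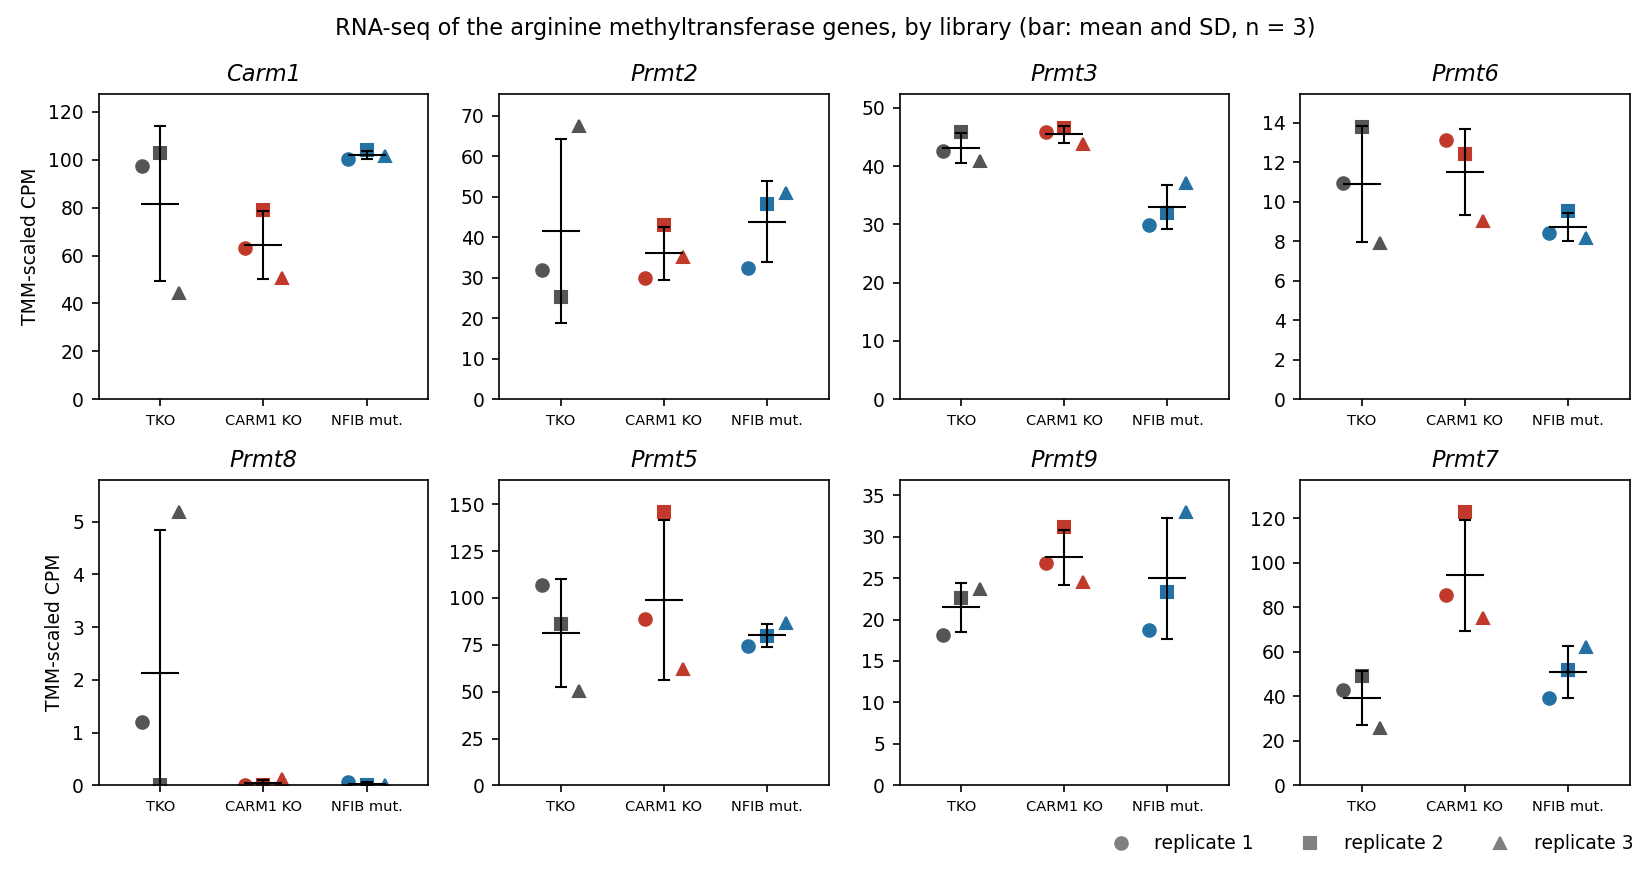
TMM-scaled CPM of the 8 methyltransferase genes with RNA values in each of the 9 RNA-seq libraries (points), with the mean and SD of each genotype. For Prmt7 all CARM1 knockout libraries, from 75.1 to 122.7 CPM, lie above all TKO libraries, from 25.6 to 49.2 CPM.

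Of the 7 members with enough counts for the test, edgeR's quasi-likelihood test (Benjamini-Hochberg) called 1 in CARM1 knockout tumors against TKO, where 38.8% of the 15514 genes tested were called, with calls made at an adjusted p below 0.1 and a log2 fold change of 0.8 or more in either direction. That gene was Prmt7, which was higher (20.5% of all genes were called higher and 18.3% lower). For NFIB mutant tumors the same tool called 0 of the 7, against 45.8% of all genes (22.3% higher and 23.5% lower), with 1 member (Prmt3) at an unadjusted p under 0.05. DESeq2, which tested Prmt8 too, called 2 members (Prmt7 and Prmt8) in CARM1 knockout tumors, and for NFIB mutant tumors 1 (Prmt8), where Prmt8 had counts in only 2 of the 3 TKO libraries. Libraries of the groups did not overlap for 2 members in CARM1 knockout tumors (Prmt7 and Prmt9), where this held for 54.8% of all genes, and for 1 (Prmt3) in NFIB mutant tumors, where it held for 57.7%. The median absolute log2 fold change of the members was 0.28 (CARM1 knockout) and 0.32 (NFIB mutant), and over all genes tested it was 0.92 and 1.02. Their median log2 fold change was 0.082 and 0.079, beside -0.027 and -0.048 over all genes. Both comparisons use the same TKO libraries. Scaling by total counts alone moved genes by a median of -0.27 (CARM1 knockout) and -0.32 (NFIB mutant) and lowered the share of higher among called genes from 52.9 to 39.5% and from 48.7 to 35.9%.

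At the chromatin, 23 of the 31 peaks were called in CARM1 knockout tumors, with 0.5 as the smallest log2 fold change, where 71.1% of the 111116 peaks tested were called. These were 8 higher and 15 lower, against 38.7% and 32.4% of all peaks. Of the 31 peaks, 21 were called in NFIB mutant tumors, 6 higher and 15 lower, where 73.3% of all peaks were called, 39.3% higher and 34% lower. Both balances used TMM factors. An offset for GC content ended the lower calls of the Carm1 peaks 41144 and 43124 bp from the gene start in both mutants. In CARM1 knockout tumors it also ended the lower call of the Prmt3 peak at 30037 bp. Higher calls were lost too, for the Carm1 peak at 17889 bp in both mutants and the Prmt2 peak at 10380 bp in CARM1 knockout tumors. Libraries did not overlap for 20 and 22 of the 31 peaks, and for 69.8% and 70.5% of all peaks. The members' median log2 fold change was -0.46 and -0.43 beside 0.22 and 0.22 over all peaks, and the median absolute value was 1.35 and 1.53 beside 2.02 and 2.11. For each gene the peak with the most reads at an annotated start is called its promoter peak here. Of these 9 peaks, 5 were called lower and 0 higher in each mutant by edgeR (Prmt1, Prmt2, Prmt3, Prmt6 and Prmt8), while the other 22 peaks gave 8 higher and 10 lower calls for CARM1 knockout, and 6 higher and 10 lower calls for NFIB mutant tumors. Shares of calls among the promoter peaks of all genes were not taken. Whether these genes differ from promoters in general therefore cannot be told. The tally of the promoter peaks changed with the scaling and with some of the other refits. RLE factors and DESeq2 called the Carm1 and Prmt7 peaks lower too in NFIB mutant tumors. With the GC offset, only Prmt3 of the 5 kept its lower call in each mutant. The Carm1 peak was then called higher in both mutants, and the Prmt7 peak in CARM1 knockout tumors. Totals alone ended the lower calls of Prmt1, Prmt2 and Prmt6 in both mutants and called the Prmt9 peak higher in both.

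The scaling of the ATAC-seq libraries bears on these directions. Totals alone moved the log2 fold changes of peaks by a median of 0.58 and 0.57 and raised the share of higher among called peaks from 54.4 to 65.9% in CARM1 knockout and from 53.6 to 64.3% in NFIB mutant tumors. Totals without the peaks that held over 0.5% of a library's reads moved them by a median of 0.37 and 0.38. An offset for GC content, which moves peaks by different amounts, took the median over all peaks from 0.22 to 0.54 and from 0.22 to 0.52, and the median move of a peak was 0.14 and 0.13. RLE factors moved peaks by a median of -0.18 and -0.15 and DESeq2 by -0.17 and -0.14. Keeping the 65496 peaks with at least 10 counts in every library moved these by a median of 0.16 and 0.17, and their median was 0.041 and 0.043. The median GC content was 54.3% in the 9 promoter peaks, 49% in the other 22 and 48.9% over all peaks.

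**Figure D3:**
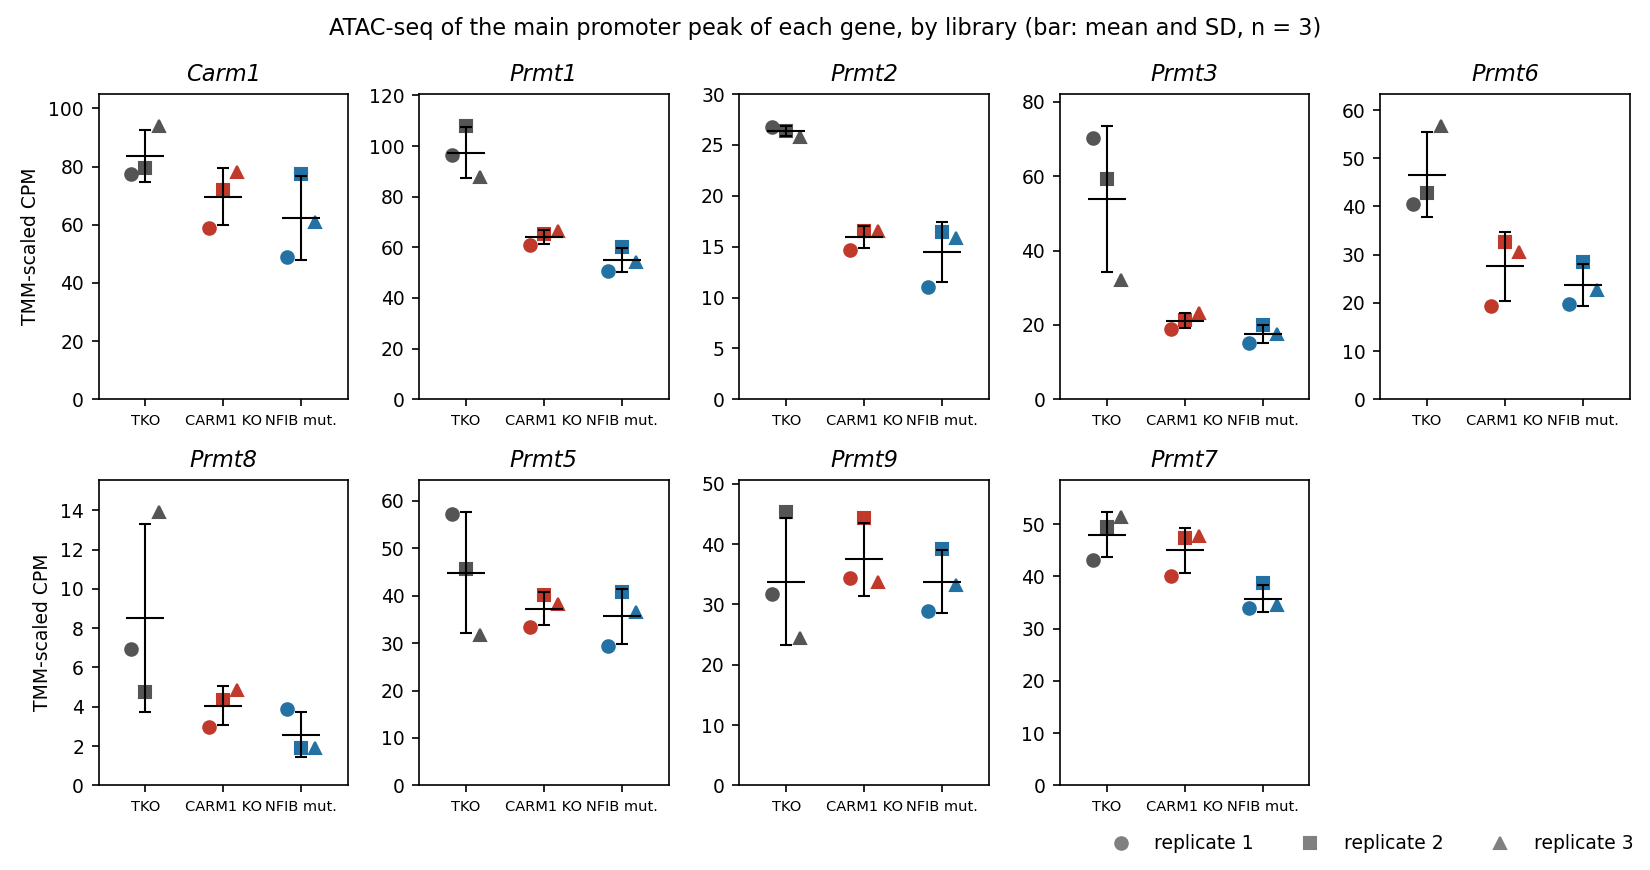
TMM-scaled CPM of the promoter peak of each of the 9 genes in the 9 ATAC-seq libraries (points), with the mean and SD of each genotype. The Prmt3 peak lies between 32.0 and 70.2 CPM in TKO and between 15.2 and 23.1 CPM in the mutants; the lower values of Prmt1, Prmt2 and Prmt6 in the mutants are no longer called with totals alone or the GC offset.

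Carm1 (ENSMUSG00000032185, chromosome 9, 21546894 to 21592623), a coactivator of transcription that methylates histone H3, is the targeted gene. It had 97.6, 103 and 44.5 CPM in TKO, 63.3, 79.0 and 50.7 CPM in CARM1 knockout and 100.3, 104 and 102 CPM in NFIB mutant libraries. The knockout libraries were all below the NFIB mutant libraries but overlapped TKO, because TKO replicate 3 was the lowest of all. The log2 fold change in CARM1 knockout tumors was -0.34 with all TKO libraries and -0.60 without TKO replicate 3, and neither was called. Because reads were summed over the whole gene, the deleted exons are not seen apart, so the RNA level does not test the knockout. Carm1 overlaps Yipf2 on the opposite strand, and the strand setting of the authors' counting is not given in the sources used here. How reads shared by the pair were counted is thus not known. Overlaps named here and below are of whole gene spans, and exons were not compared.

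Its promoter peak (chromosome 9, 21545420 to 21548180) had 77.5, 79.4 and 93.8 CPM in TKO, 59.0, 72.0 and 78.1 CPM in CARM1 knockout and 48.8, 77.6 and 61.0 CPM in NFIB mutant libraries. The groups overlapped, and neither mutant was called (log2 fold change -0.26 and -0.42, adjusted p = 0.212 and 0.0557 by the Benjamini-Hochberg method after edgeR's quasi-likelihood test, with 4 of the 6 mutant libraries below all TKO libraries). The direction turned with the GC offset, which called the peak higher at 0.77 and 0.72, and with totals alone (0.31 and 0.14). RLE factors (-0.57), DESeq2 (-0.56) and the fit without NFIB mutant replicate 2 (-0.61) called it lower in NFIB mutant tumors. Of the other 5 peaks of the gene, 2 were called higher and 2 lower in each mutant.

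Within Carm1, an intronic peak 8296 bp from the gene start had 0.988, 1.21 and 0.676 CPM in TKO, 4.52, 4.01 and 1.43 CPM in CARM1 knockout and 3.62, 3.42 and 3.98 CPM in NFIB mutant libraries. All mutant libraries were above all TKO libraries, with CARM1 knockout replicate 3 the lowest of them. It rose by 1.79 and 1.93 on the log2 scale (adjusted p = 0.00964 and 0.00627 from the same test) and was called higher in 19 of 19 refits in both, from 1.51 to 2.39 and from 1.75 to 2.54. Another intronic peak at 17889 bp was called higher (1.21 and 1.37), and peaks at 41144 bp, near another annotated start, and at 43124 bp were called lower (-1.25 and -1.03, -1.58 and -1.53). All 3 had every mutant library on the same side of every TKO library. The GC offset ended these calls in both mutants, at 0.24 and 0.40 for the first, -0.24 and -0.019 for the next and -0.71 and -0.67 for the last. Totals alone gave 1.83 in CARM1 knockout tumors at 17889 bp, ended the calls at 41144 bp (-0.69 and -0.47) and moved those at 43124 bp to -0.98 and -0.96. The call at 17889 bp was also lost without TKO replicate 1 (1.11), TKO replicate 3 (1.03) or CARM1 knockout replicate 2 (1.01) in CARM1 knockout tumors and without NFIB mutant replicate 1 (1.02) in NFIB mutant tumors. That at 41144 bp in NFIB mutant tumors was lost without TKO replicate 1 (-0.97), NFIB mutant replicate 1 (-1.02) or NFIB mutant replicate 3 (-0.80) and with totals without the largest peaks (-0.65).

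Prmt1 (ENSMUSG00000109324, chromosome 7, 44975989 to 44986568), which makes most of the asymmetric dimethylarginine of mammalian cells, could be followed at its chromatin. The promoter peak (chromosome 7, 44985050 to 44988432) had 96.5, 108 and 87.8 CPM in TKO, 61.0, 65.2 and 66.3 CPM in CARM1 knockout and 50.7, 60.3 and 54.1 CPM in NFIB mutant libraries. No mutant library reached a TKO library. It was called lower in CARM1 knockout tumors (log2 fold change -0.60, standard error 0.13, adjusted p = 0.00205 by the Benjamini-Hochberg method after edgeR's quasi-likelihood test) and in NFIB mutant tumors (-0.82, adjusted p = 0.000351). Other scalings ended these calls: totals alone (-0.011 and -0.24), totals without the largest peaks (-0.22 and -0.44) and the GC offset, which turned the CARM1 knockout value to 0.23 and gave -0.014 in NFIB mutant tumors. Keeping peaks with at least 10 counts in every library also ended it in CARM1 knockout tumors (-0.44). A peak near a later start of Prmt1, 3077 bp into the gene, was called in neither mutant by edgeR, and DESeq2 called it lower in CARM1 knockout tumors.

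Prmt2 (ENSMUSG00000020230, chromosome 10, 76207222 to 76237865), a weakly active enzyme that binds nuclear receptors, had 31.8, 25.4 and 67.4 CPM in TKO, 30.0, 43.0 and 35.1 CPM in CARM1 knockout and 32.4, 48.2 and 51.0 CPM in NFIB mutant libraries. TKO replicate 3 was the highest and TKO replicate 2 the lowest of all 9, so the genotypes overlapped. The log2 fold change was -0.21 in CARM1 knockout tumors, turning to 0.37 without TKO replicate 3. The NFIB mutant value was 0.079, turning to -0.27 with totals alone, -0.077 without TKO replicate 1, -0.18 without TKO replicate 2 and -0.035 without NFIB mutant replicate 3. Prmt2 contains Mir678 on its own strand, so reads of the pair are uncertain.

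The promoter peak of Prmt2 (chromosome 10, 76237169 to 76238441) was steadier, at 26.8, 26.4 and 25.8 CPM in TKO, 14.7, 16.5 and 16.6 CPM in CARM1 knockout and 11.1, 16.5 and 15.9 CPM in NFIB mutant libraries. All TKO libraries were above all mutant libraries, and the peak was called lower at log2 fold changes of -0.73 and -0.86 (adjusted p = 0.00943 and 0.00374 from the same test). Totals alone (-0.15 and -0.29), totals without the largest peaks (-0.36 and -0.49) and the GC offset (0.070 and -0.093) ended both calls. An intronic peak at 10380 bp had 0.0319, 0.155 and 0.380 CPM in TKO, 1.47, 0.902 and 0.169 CPM in CARM1 knockout and 0.568, 0.289 and 0.647 CPM in NFIB mutant libraries, near the limit of 3 counts. It was called higher in CARM1 knockout tumors (2.20), although replicate 3 lay within the TKO range. In NFIB mutant tumors it was not called (1.45), except with totals alone (1.98) or without TKO replicate 3 (2.39), and the direct comparison of the mutants gave 0.75 and no call. The CARM1 knockout call was lost with the GC offset (1.69) and without TKO replicate 1 (1.68), TKO replicate 2 (2.09) or CARM1 knockout replicate 1 (1.56).

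Promoter windows are shown for Prmt2, Prmt3 and Prmt6, whose promoter peaks were called lower, and for Prmt7, whose RNA was called higher. They are 300 bases around the RefSeq gene start, most of them before it, on the strand of the gene in build GRCm38.p6 (Prmt2, chr10:76237816-76238115 on the minus strand; Prmt3, chr7:49778108-49778407 on the plus strand; Prmt6, chr3:110250950-110251249 on the minus strand; Prmt7, chr8:106210804-106211103 on the plus strand). Capitals mark matches to the motifs described in the next paragraph.
Prmt2: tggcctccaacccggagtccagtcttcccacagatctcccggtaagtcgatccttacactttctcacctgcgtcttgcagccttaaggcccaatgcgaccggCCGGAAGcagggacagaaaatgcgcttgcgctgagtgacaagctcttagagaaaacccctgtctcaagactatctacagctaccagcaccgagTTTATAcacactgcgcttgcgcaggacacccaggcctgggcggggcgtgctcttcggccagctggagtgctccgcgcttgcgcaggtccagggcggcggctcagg
Prmt3: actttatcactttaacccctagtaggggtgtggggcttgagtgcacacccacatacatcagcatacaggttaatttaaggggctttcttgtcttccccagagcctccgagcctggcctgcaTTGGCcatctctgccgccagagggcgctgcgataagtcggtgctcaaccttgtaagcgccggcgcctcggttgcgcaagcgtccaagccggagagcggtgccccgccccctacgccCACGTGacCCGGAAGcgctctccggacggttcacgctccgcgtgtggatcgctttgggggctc
Prmt6: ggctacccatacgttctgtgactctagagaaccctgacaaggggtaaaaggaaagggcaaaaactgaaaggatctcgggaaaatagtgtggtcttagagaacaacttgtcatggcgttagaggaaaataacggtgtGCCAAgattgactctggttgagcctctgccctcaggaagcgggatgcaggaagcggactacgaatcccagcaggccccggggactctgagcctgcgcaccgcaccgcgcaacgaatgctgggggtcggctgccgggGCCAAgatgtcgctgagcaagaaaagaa
Prmt7: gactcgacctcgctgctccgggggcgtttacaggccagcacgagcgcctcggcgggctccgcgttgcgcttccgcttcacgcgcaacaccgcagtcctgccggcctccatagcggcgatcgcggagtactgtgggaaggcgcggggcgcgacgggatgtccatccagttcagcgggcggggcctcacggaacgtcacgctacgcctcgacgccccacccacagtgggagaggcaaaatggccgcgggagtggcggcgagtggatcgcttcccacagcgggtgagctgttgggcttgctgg

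Windows of 8 of the 9 genes were matched by symbol, Carm1 being the exception, and 6 motifs were searched on both strands. The short NFI site TTGGC, which reads GCCAA on the other strand, was in 46.7% of the 32851 windows of 27025 genes and in those of Prmt3, Prmt6 (2 matches, both printed as GCCAA) and Prmt9. The longer palindromic NFI site, which contains the short one, was in 0.0365% of windows and in no member's. The ETS motif CCGGAAG (8.86% of windows) was in Prmt2 and Prmt3, the E-box CACGTG (7.15%) in Prmt1 and Prmt3, and the TATA motif TATAAA (13.6%) in Prmt2, where it is printed as TTTATA. The E2F motif, which also contains TTGGC, was in 0.514% of windows and in no member's. The member windows were rich in CG. Their GC content ran from 55% (Prmt6) to 79% (Prmt8) and their CpG counts from 16 (Prmt5 and Prmt6) to 44 (Prmt8), where the medians of all windows were 52.7% and 7. Prmt7 had 69.7% GC, 39 CpG and none of the 6 motifs. A match describes letters and not a bound site.

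Prmt3 (ENSMUSG00000030505, chromosome 7, 49778346 to 49858265), a cytosolic enzyme that methylates a protein of the small ribosomal subunit, had 42.6, 45.8 and 40.9 CPM in TKO, 45.9, 46.5 and 43.9 CPM in CARM1 knockout and 29.9, 32.0 and 37.1 CPM in NFIB mutant libraries. The NFIB mutant libraries were below all others, and TKO and CARM1 knockout overlapped. Against TKO the log2 fold change in NFIB mutant tumors was -0.39 (standard error 0.15, adjusted p = 0.0687 by the Benjamini-Hochberg method after edgeR's quasi-likelihood test), under the fold threshold. It was called in 0 of 16 refits (-0.71 to -0.31, adjusted p 0.00580 to 0.198), and totals alone gave -0.71. In CARM1 knockout tumors it was 0.076 (adjusted p = 0.713), and totals alone turned it to -0.19. Prmt3 overlaps Gm44822 on its own and Gm26856 on the other strand, so reads shared with these are uncertain.

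The promoter peak of Prmt3 (chromosome 7, 49777613 to 49780558), which covers the start of the gene and the window printed above, had 70.2, 59.2 and 32.0 CPM in TKO, 19.0, 21.3 and 23.1 CPM in CARM1 knockout and 15.2, 20.1 and 17.5 CPM in NFIB mutant libraries. All mutant libraries lay below TKO replicate 3, itself the lowest TKO library. The peak fell by 1.35 on the log2 scale in CARM1 knockout tumors (standard error 0.26, adjusted p = 0.00133 from the same test) and fell by 1.62 in NFIB mutant tumors (standard error 0.26, adjusted p = 0.000464), and it was called lower in 19 of 19 refits in both. Its size depended on the scaling, with -0.73 and -1.01 under totals alone and -0.55 and -0.84 under the GC offset. Over the refits the adjusted p ranged from 1.61e-05 to 0.0943 in CARM1 knockout and from 5.39e-07 to 0.0196 in NFIB mutant tumors. The RNA of the gene in CARM1 knockout tumors overlapped TKO where this peak was lower.

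Prmt3 held 9 of the 31 peaks, more than any other member, and all 9 were called in both mutants, 3 higher and 6 lower, where 71.1% and 73.3% of all peaks were called. Of the 8 peaks beyond the promoter, all in introns, the one 46308 bp from the start (chromosome 7, 49824043 to 49825264) had 1.43, 1.42 and 3.13 CPM in TKO, 19.0, 15.9 and 16.1 CPM in CARM1 knockout and 14.3, 14.2 and 17.0 CPM in NFIB mutant libraries. It was low in TKO and high in all 6 mutant libraries, at 8.55 and 7.64 times the TKO level (log2 3.10 and 2.93, adjusted p = 8.76e-05 and 9.66e-05 by the Benjamini-Hochberg method after edgeR's quasi-likelihood test), and 2.08 and 1.93 on the log2 scale with the GC offset. The peak at 23228 bp (chromosome 7, 49801036 to 49802113) showed the opposite, with 16.4, 12.7 and 5.41 CPM in TKO, 0.465, 0.192 and 0.749 CPM in CARM1 knockout and 0.239, 0 and 0.0392 CPM in NFIB mutant libraries. It was nearly absent from the mutants (log2 -4.62 and -7.03, adjusted p = 0.00125 and 0.000264 from the same test, 3 of 3 libraries lower in each). The NFIB mutant value rests on 8, 0 and 2 counts, and was called lower in 18 of 18 refits (-8.88 to -6.42).

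At 64845 bp the levels were 17.6, 35.5 and 21.7 CPM in TKO, 11.2, 9.73 and 5.63 CPM in CARM1 knockout and 8.69, 4.55 and 2.39 CPM in NFIB mutant libraries, so that every mutant library was lower (log2 -1.49 and -2.26). Totals alone brought the CARM1 knockout value to -0.90, and the GC offset with replicate block took it to -2.26. The other peaks were smaller: those at 8823 bp (-2.02 and -1.83) and 21944 bp (-3.63 and -4.06) were called lower, and those at 30860 bp (2.92 and 2.72) and 78553 bp (2.74 and 2.35) were called higher. None of the refits that tested these 4 peaks ended a call, and the GC offset moved the NFIB mutant value at 78553 bp to 1.55. Less steady was the peak at 30037 bp, with 1.31, 1.33 and 2.70 CPM in TKO, 0.723, 0.614 and 1.21 CPM in CARM1 knockout and 0.448, 0.673 and 0.451 CPM in NFIB mutant libraries. Every mutant library was lower, with CARM1 knockout replicate 3 just under TKO. Its call in CARM1 knockout tumors (-1.06) held in 8 of 19 refits. It was lost with totals alone (-0.53), totals without the largest peaks (-0.73), the GC offset (-0.38), the replicate block (-1.04) and a fit of the compared genotypes alone (-1.09). Leaving out TKO replicate 3 (-0.63), CARM1 knockout replicate 1 (-0.96), CARM1 knockout replicate 2 (-0.87), NFIB mutant replicate 1 (-1.06) or NFIB mutant replicate 3 (-1.06) ended it too. In NFIB mutant tumors (-1.75) the GC offset gave -1.10, and the call was lost with that offset and the replicate block together (-0.996).

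**Figure D4:**
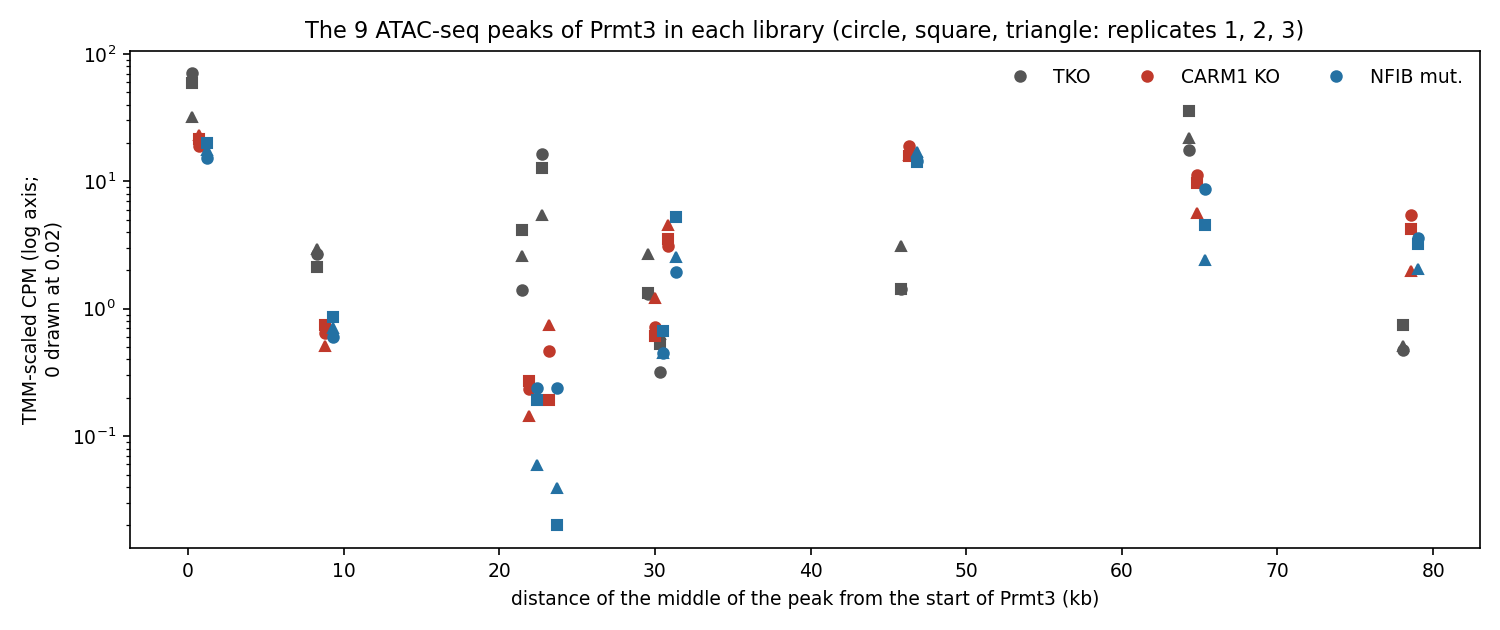
TMM-scaled CPM (log axis, a library at 0 drawn at the bottom) of the 9 Prmt3 peaks in each of the 9 ATAC-seq libraries (points, genotypes set slightly apart) against the distance of the peak from the gene start in kb. The mutants lie above TKO at 30860, 46308 and 78553 bp and below it at the other 6 peaks.

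Prmt6 (ENSMUSG00000049300, chromosome 3, 110246109 to 110250998), a nuclear enzyme that methylates histone H3, had 10.9, 13.8 and 7.92 CPM in TKO, 13.1, 12.4 and 9.03 CPM in CARM1 knockout and 8.44, 9.54 and 8.18 CPM in NFIB mutant libraries. TKO replicate 3 was the lowest library, and the genotypes overlapped. The log2 fold change was 0.082 (CARM1 knockout) and -0.32 (NFIB mutant), neither called, and the former turned to -0.19 with totals alone, -0.065 without TKO replicate 3 and -0.015 without CARM1 knockout replicate 1. C130013H08Rik overlaps the gene on the opposite strand, so its reads are uncertain.

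Its promoter peak (chromosome 3, 110249451 to 110251580) had 40.4, 42.7 and 56.6 CPM in TKO, 19.3, 32.7 and 30.7 CPM in CARM1 knockout and 19.8, 28.4 and 22.7 CPM in NFIB mutant libraries, with all mutant libraries lower. It was called lower in both (log2 -0.76 and -0.98, adjusted p = 0.0143 and 0.00382 by the Benjamini-Hochberg method after edgeR's quasi-likelihood test). Both calls were lost with totals alone (-0.19 and -0.43) and with the GC offset (0.16 in CARM1 knockout tumors). Totals without the largest peaks ended that in CARM1 knockout tumors (-0.41) and gave -0.62 in NFIB mutant tumors.

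Prmt8 (ENSMUSG00000030350, chromosome 6, 127689011 to 127769472), a membrane-anchored enzyme known mainly from neurons, had 25, 0 and 117 counts in TKO, 0, 0 and 2 counts in CARM1 knockout and 1, 0 and 0 counts in NFIB mutant libraries. All mutant libraries were under 3 counts, and so was TKO replicate 2, so the RNA of TKO replicates 1 (1.20 CPM) and 3 (5.18 CPM) stood alone. The gene did not pass the filter on low counts. DESeq2 and some of the edgeR refits called it, which rests on those 2 TKO libraries alone, so neither a p nor a fold is given. In the same libraries the neuroendocrine marker sum was 1944 CPM in TKO replicate 1, 1810 CPM in TKO replicate 2 and 4371 CPM in TKO replicate 3. CARM1 knockout replicate 3, with 2 counts of Prmt8, had a sum of 2138 CPM. The part of these markers in the Prmt8 level was not tested. Prmt8 overlaps Gm42738 and Gm42739 on the opposite strand, so its reads are uncertain.

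The promoter peak of Prmt8 (chromosome 6, 127767199 to 127769413) had 6.91, 4.76 and 13.9 CPM in TKO, 2.97, 4.34 and 4.86 CPM in CARM1 knockout and 3.88, 1.92 and 1.92 CPM in NFIB mutant libraries. TKO replicate 3 was highest in this peak too, and CARM1 knockout replicate 3 overlapped TKO. The call in CARM1 knockout tumors (log2 -1.07, adjusted p = 0.0732 from the same test, 2 of 3 libraries below all TKO libraries) held in 10 of 19 refits, whose adjusted p ran from 0.0157 to 0.934. It was lost without TKO replicate 3 (-0.52), CARM1 knockout replicate 1 (-0.88) or CARM1 knockout replicate 2 (-1.11), and with totals alone (-0.55), totals without the largest peaks (-0.75), at least 10 counts in every library, the replicate block (-0.97) and the GC offset (-0.048). The call in NFIB mutant tumors (-1.73, adjusted p = 0.0103, all 3 libraries lower) was lost with the GC offset (-0.58).

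Closer to the start, an intronic peak 2632 bp into Prmt8 had 1.47, 1.21 and 2.999 CPM in TKO, 0.336, 0.250 and 0.338 CPM in CARM1 knockout and 0.0896, 0.192 and 0.334 CPM in NFIB mutant libraries. All mutant libraries were lower (log2 -2.61 and -3.15), it was called in 18 of 18 refits in both, and the GC offset with replicate block gave -1.65 in CARM1 knockout tumors. A peak at 54322 bp, near the limit of detection, was called higher in both (2.14 and 1.97, all mutant libraries above TKO), and the NFIB mutant call was lost without TKO replicate 2 (1.66) or NFIB mutant replicate 3 (1.39). That at 46113 bp was called higher in CARM1 knockout tumors (1.66), a call lost without TKO replicate 1 (1.26) or CARM1 knockout replicate 3 (1.45), and at 2.54 without TKO replicate 2. In NFIB mutant tumors it was not called (0.084), and a direct comparison of the mutants gave 1.57 (adjusted p = 0.787 by the Benjamini-Hochberg method after edgeR's quasi-likelihood test, all 3 CARM1 knockout libraries higher).

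Prmt5 (ENSMUSG00000023110, chromosome 14, 54507187 to 54517525), the main type II enzyme, which works in a complex with Wdr77, had 107, 86.3 and 50.3 CPM in TKO, 88.6, 146 and 62.4 CPM in CARM1 knockout and 74.3, 79.8 and 86.6 CPM in NFIB mutant libraries. The lowest library of all was TKO replicate 3, the highest was CARM1 knockout replicate 2, and the genotypes overlapped. Its log2 fold change was 0.28 in CARM1 knockout tumors (-0.10 without CARM1 knockout replicate 2) and -0.018 in NFIB mutant tumors (0.24 without TKO replicate 1, -0.24 without TKO replicate 3). The promoter peak (chromosome 14, 54516349 to 54518417) had 57.2, 45.6 and 31.8 CPM in TKO, 33.3, 40.0 and 38.2 CPM in CARM1 knockout and 29.4, 40.8 and 36.6 CPM in NFIB mutant libraries. The groups overlapped in this peak as well, again with a low TKO replicate 3. It was not called (-0.27 and -0.33), turned with totals alone (0.33 and 0.26) and totals without the largest peaks (0.12 and 0.060), and was called lower in NFIB mutant tumors without TKO replicate 3 (-0.52). Upstream of the gene, a peak at -3758 bp from the start had 2.33, 1.95 and 1.27 CPM in TKO, 0.258, 0.115 and 0.218 CPM in CARM1 knockout and 0.269, 0.409 and 0.196 CPM in NFIB mutant libraries. All mutant libraries were lower, it was called in both (-3.23 and -2.66) and in 18 of 18 refits, and the peak at -1210 bp was called in neither mutant.

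Prmt9 (ENSMUSG00000037134, chromosome 8, 77549397 to 77581338), the other type II enzyme, which methylates a splicing factor, had 18.1, 22.6 and 23.7 CPM in TKO, 26.8, 31.2 and 24.6 CPM in CARM1 knockout and 18.7, 23.3 and 32.9 CPM in NFIB mutant libraries. All CARM1 knockout libraries were above all TKO libraries, though the lowest exceeded the highest TKO library by little, and the NFIB mutant libraries overlapped TKO. Neither difference was called (log2 0.36 with adjusted p = 0.287 and 0.22 with adjusted p = 0.503 by the Benjamini-Hochberg method after edgeR's quasi-likelihood test). The NFIB mutant value turned to -0.12 with totals alone and to -0.026 without NFIB mutant replicate 3. The gene overlaps Gm45286 on its own strand and Gm23468 on the other, so its reads are uncertain. Its single peak, at the promoter (chromosome 8, 77548926 to 77550889), had 31.6, 45.3 and 24.4 CPM in TKO, 34.3, 44.4 and 33.7 CPM in CARM1 knockout and 28.8, 39.3 and 33.2 CPM in NFIB mutant libraries. Groups overlapped, with replicate 2 the highest in each genotype. The CARM1 knockout log2 fold change was 0.15, and the mean of the NFIB mutant libraries was that of TKO, 33.8 CPM. Totals alone called the peak higher in both (0.77 and 0.61), as did totals without the largest peaks in CARM1 knockout tumors (0.54).

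Prmt7 (ENSMUSG00000060098, chromosome 8, 106210936 to 106252794), the monomethylating enzyme, had 42.7, 49.2 and 25.6 CPM in TKO, 85.6, 122.7 and 75.1 CPM in CARM1 knockout and 39.2, 51.6 and 62.3 CPM in NFIB mutant libraries. Every CARM1 knockout library was above every library of the other genotypes, and TKO and NFIB mutant libraries overlapped. CARM1 knockout replicate 3, the one with a neuroendocrine marker sum in the TKO range, was the lowest of its group at 75.1 CPM. Calca gave 832 CPM of that sum, and Insm1, Uchl1 and Scg3 lay below all TKO libraries there. The part of these markers in the Prmt7 level was not tested. With 3 libraries against 3, an exact permutation test of a single gene could not give a p under 0.10. In CARM1 knockout tumors Prmt7 rose to 2.41 times the TKO level (log2 fold change 1.27, standard error 0.31, adjusted p = 0.0169 by the Benjamini-Hochberg method after edgeR's quasi-likelihood test, 3 of 3 libraries higher). It was called in 16 of 16 refits, from 1.001 to 1.47 on the log2 scale and with adjusted p from 0.00250 (DESeq2) to 0.0562 (without CARM1 knockout replicate 2). The NFIB mutant log2 fold change was 0.38 (adjusted p = 0.332) and was not called. The direct comparison of CARM1 knockout with NFIB mutant tumors gave 0.89 (standard error 0.31, adjusted p = 0.524 from the same test, all 3 libraries higher), so a difference between the mutants did not pass the test. Gm26786 and Smpd3 overlap the span of Prmt7 on the opposite strand. Without the strand setting it is not known how any reads shared with them were counted.

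The promoter peak of Prmt7 (chromosome 8, 106209485 to 106211956) had 43.2, 49.5 and 51.3 CPM in TKO, 40.1, 47.3 and 47.7 CPM in CARM1 knockout and 34.0, 38.8 and 34.4 CPM in NFIB mutant libraries. Where the RNA was higher, in CARM1 knockout tumors, the peak overlapped TKO (log2 -0.093), and in NFIB mutant tumors all libraries were lower (-0.43, adjusted p = 0.0195 by the Benjamini-Hochberg method after edgeR's quasi-likelihood test) without reaching the fold threshold. RLE factors (-0.58) and DESeq2 (-0.57) called the latter lower. The GC offset turned both, to 0.61, which it called higher, and 0.25, and totals alone to 0.48 and 0.14. An intronic peak at 39144 bp had 2.68, 4.64 and 0.929 CPM in TKO, 0.362, 0.250 and 1.14 CPM in CARM1 knockout and 0.508, 0.385 and 0.196 CPM in NFIB mutant libraries. CARM1 knockout replicate 3 exceeded TKO replicate 3, and the other mutant libraries were below all TKO libraries. It was called lower in both (-2.24 and -2.93), the GC offset kept both calls, and that offset with replicate block ended the CARM1 knockout call (-1.35). The peak at 15746 bp was called in neither mutant, except higher in NFIB mutant tumors with totals alone.

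**Figure D5:**
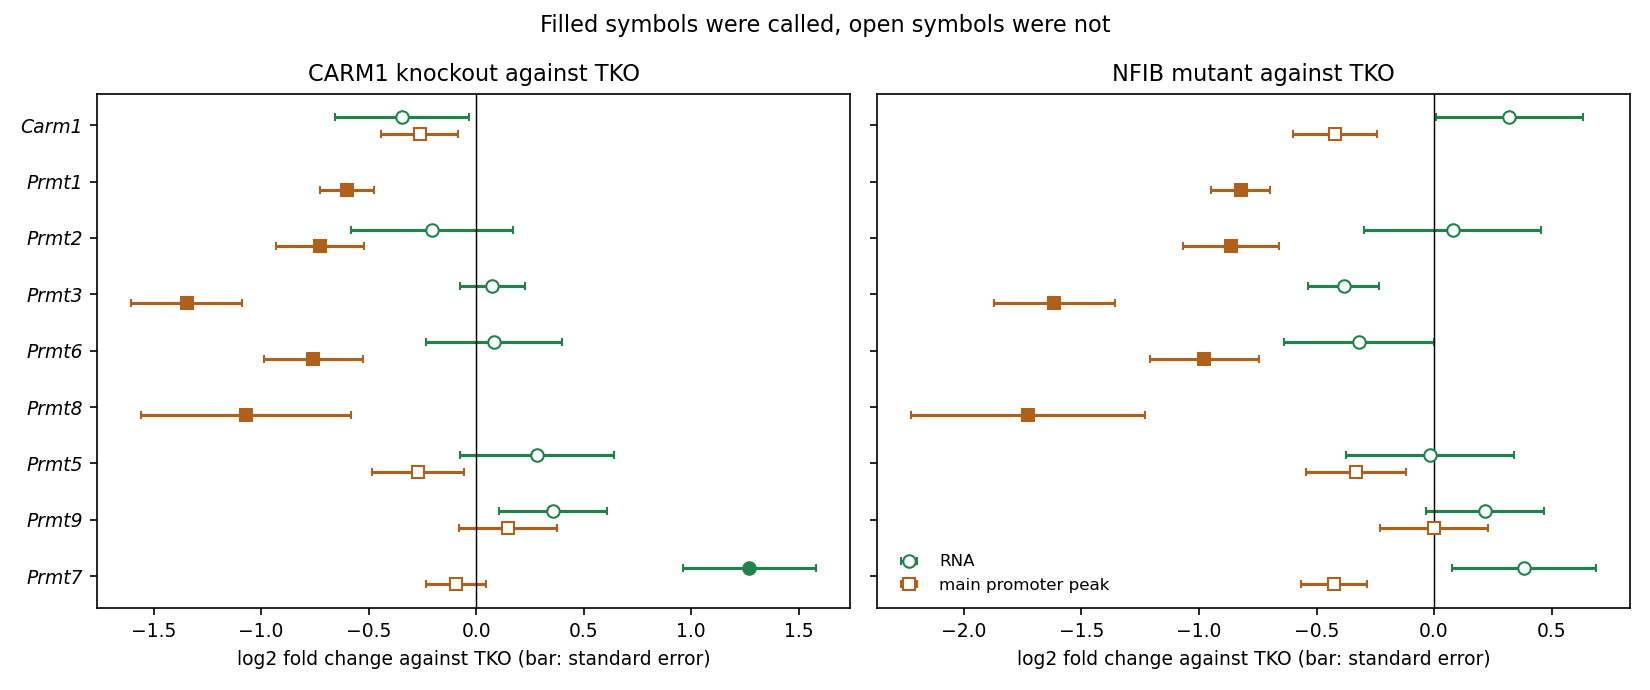
Log2 fold change of the RNA (circles) and of the promoter peak (squares) of each methyltransferase, with standard errors, in CARM1 knockout and NFIB mutant tumors, both against the same TKO libraries (filled symbols were called). Prmt7 RNA (1.27 in CARM1 knockout tumors) is the one RNA value past the threshold, and the Prmt3 promoter peak is at -1.35 and -1.62.

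Compared directly, CARM1 knockout and NFIB mutant tumors had 0 members called by edgeR's quasi-likelihood test (Benjamini-Hochberg), where 0% of the 15514 genes were called. At an unadjusted p under 0.05 there were 2 members (Prmt3 and Prmt7) and 1415 genes, and DESeq2 called 535 genes and 0 members. For 3 members, Carm1 (log2 -0.66), Prmt3 (0.46) and Prmt7 (0.89), libraries of the mutants did not overlap, which held for 15.6% of all genes. The median log2 difference of the members was 0.30, beside 0.011 over all genes. Among peaks, edgeR called 0 of the 31 and 0% of all 111116, with 3 of the 31 and 6814 peaks at an unadjusted p under 0.05, while DESeq2 called 1060 peaks and 0 of the 31. Libraries did not overlap for 4 of the 31 peaks and for 11.8% of all peaks.

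Genes around the enzymes were taken from lists of partners, of the S-adenosylmethionine cycle and of proteins that read or remove methylarginine. Of 7 partners and regulators, all tested, 1 was called higher (Btg1) and 1 lower (Btg2) in each mutant, where 38.8% and 45.8% of all genes were called in CARM1 knockout and NFIB mutant tumors. The median log2 fold change was 0.004 and -0.32, beside -0.027 and -0.048 over all genes. Btg1, which binds and stimulates PRMT1, had 72.0, 90.7 and 97.4 CPM in TKO, 235, 227 and 112 CPM in CARM1 knockout and 282, 274 and 112 CPM in NFIB mutant libraries. All mutant libraries were higher, replicate 3 of each by little. It rose by 1.14 and 1.36 on the log2 scale (adjusted p = 0.0607 and 0.0301 by the Benjamini-Hochberg method after edgeR's quasi-likelihood test). The CARM1 knockout call was lost with totals alone (0.86) and without TKO replicate 1 (1.05), TKO replicate 2 (1.18), CARM1 knockout replicate 1 (0.98) or CARM1 knockout replicate 2 (1.01). Btg2, its relative, had 38.1, 52.8 and 60.2 CPM in TKO, 24.6, 13.3 and 24.96 CPM in CARM1 knockout and 34.4, 19.9 and 13.2 CPM in NFIB mutant libraries, and all mutant libraries were lower. It fell by 1.27 (CARM1 knockout) and fell by 1.16 (NFIB mutant) on the log2 scale (adjusted p = 0.0428 and 0.0479 from the same test). The calls were lost without TKO replicate 3 (-1.08 in CARM1 knockout tumors), without CARM1 knockout replicate 2 (-1.02) in CARM1 knockout tumors, and without TKO replicate 2 (-1.13), NFIB mutant replicate 2 (-1.08) or NFIB mutant replicate 3 (-0.89) in NFIB mutant tumors.

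The S-adenosylmethionine list held 7 genes, of which 6 were tested. In CARM1 knockout tumors 1 was called higher and 1 lower (median log2 fold change 0.33), and in NFIB mutant tumors 2 higher and 1 lower (median 0.23), where 38.8% and 45.8% of all genes were called, with medians of -0.027 and -0.048. Mat2a, the catalytic subunit that makes S-adenosylmethionine outside the liver, had 367, 591 and 268 CPM in TKO, 209, 203 and 181 CPM in CARM1 knockout and 195, 195 and 177 CPM in NFIB mutant libraries, and all mutant libraries were lower. It fell by 1.05 (CARM1 knockout) and fell by 1.11 (NFIB mutant) on the log2 scale (adjusted p = 0.0210 and 0.0141 by the Benjamini-Hochberg method after edgeR's quasi-likelihood test), and without TKO replicate 2, its highest library, it missed the fold threshold (-0.69 and -0.75). Mtap, which clears the methylthioadenosine that inhibits PRMT5, had 19.4, 20.7 and 8.20 CPM per kilobase of exon in TKO, 51.5, 74.3 and 35.2 CPM per kilobase of exon in CARM1 knockout and 42.3, 51.3 and 38.1 CPM per kilobase of exon in NFIB mutant libraries. Every mutant library exceeded every TKO library, and Mtap rose by 1.74 and 1.45 on the log2 scale (adjusted p = 0.0141 and 0.0215 from the same test), called in 16 of 16 refits in both.

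Among 5 readers of methylarginine, of which 4 were tested, Snd1 was called higher and Tdrd3 lower in each mutant, where 38.8% and 45.8% of all genes were called. The list's median log2 fold changes were 0.54 and 0.47, and those of all genes -0.027 and -0.048. Snd1, a Tudor protein that binds symmetric dimethylarginine, had 188, 238 and 137 CPM in TKO, 379, 459.9 and 300.4 CPM in CARM1 knockout and 313, 394 and 506 CPM in NFIB mutant libraries. All mutant libraries were higher, by 1.02 and 1.11 on the log2 scale (adjusted p = 0.0253 and 0.0156 by the Benjamini-Hochberg method after edgeR's quasi-likelihood test), which totals alone brought below the fold threshold (0.75 and 0.79). Tdrd3, a Tudor protein that binds asymmetric dimethylarginine, had 27.8, 44.6 and 30.1 CPM in TKO, 17.8, 20.6 and 18.6 CPM in CARM1 knockout and 20.5, 13.7 and 13.6 CPM in NFIB mutant libraries, with all mutant libraries lower. It fell by 0.85 (CARM1 knockout) and fell by 1.10 (NFIB mutant) on the log2 scale (adjusted p = 0.0393 and 0.0134 from the same test). The call in CARM1 knockout tumors was lost without TKO replicate 2 (-0.61), CARM1 knockout replicate 1 or CARM1 knockout replicate 3. Enzymes of methylarginine breakdown (3 genes, 2 tested) and other enzymes of arginine (8 genes, 5 tested) gave 0 calls by edgeR in either mutant. At an unadjusted p under 0.05 there were 0 and 0 genes of the former and 0 and 0 of the latter in CARM1 knockout and NFIB mutant tumors, and DESeq2 called 0 and 0 of the former and 0 and 0 of the latter.

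The genes whose log2 CPM followed Carm1 most closely over the 9 libraries, among 10398 genes compared, were Tkt, Sp1 and Cpsf1. Pearson's r was 0.946 for Tkt (Spearman's rho 0.850), 0.946 for Sp1 (0.750) and 0.935 for Cpsf1 (0.883), and without the pair of libraries farthest from the median of Carm1 it was 0.866, 0.817 and 0.921. Tkt, an enzyme of the pentose phosphate pathway, had 463, 474 and 147 CPM in TKO, 271, 260.1 and 226 CPM in CARM1 knockout and 364, 436 and 431 CPM in NFIB mutant libraries. As for Carm1, TKO replicate 3 was the lowest library and the CARM1 knockout libraries came next. These genes were picked for their likeness, and the values are a description without a test.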

How the data were processed

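RNA-seq and ATAC-seq were each deposited as a table of counts for 9 libraries, 3 per genotype. Columns carry the letters C, KO or N with a replicate number. They were taken as TKO (control), CARM1 knockout and NFIB mutant from these letters and the sample titles. By the study's Methods and the labels, the authors trimmed RNA reads with Trim Galore, aligned them to mm10 with HISAT2 and made counts per gene with htseq-count, whose strand setting was not given in the sources used here. For ATAC-seq the authors used Bowtie2, Picard and MACS2 (the labels name Genrich), and the deposited counts are of single reads in peaks, from featureCounts 1.6.3 per the file header (the Methods name bedtools multicov). Whether reads were shifted for the transposase was not given in the sources used here.

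Library totals ran from 15848866 to 20915057 counts in RNA-seq and from 26917178 to 47653979 in ATAC-seq, which sets the precision of low values, and identical libraries were not found. The 5 summary entries of the RNA table were left out of totals and tests. Of all entries of a library, those on genes included, they held 3.65 to 12.2% for reads with no feature (higher in all TKO than in all mutant libraries), 3.84 to 4.50% for ambiguous and 3.18 to 6.31% for reads aligned more than once. Symbols came from the gencode release 21 annotation (GRCm38) and matched 45143 of 46078 genes.

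Each table was fitted as a whole with all 9 libraries in edgeR 4.0.16 (R 4.3.3, limma 3.58.1): TMM factors, filterByExpr, and the quasi-likelihood test with robust dispersions and Benjamini-Hochberg adjustment over all features. A feature was called at an adjusted p below 0.1 with a log2 fold change of 0.8 (RNA) or 0.5 (ATAC) or more in either direction. P-values measure the spread between the animals the labels name. Alternatives were totals, totals without peaks over 0.5% of a library, RLE factors, no filter, at least 10 counts in every library, DESeq2 1.42.0, only the 2 genotypes compared, a replicate block, a GC offset with and without that block, an adjusted p under 0.05 with no minimum fold, gene-body peaks only, and each library left out. The code was tested on simulated data. Named genes were all 9 members, with for each its main peak within 1000 bp of an annotated start and the peaks called, and, with values, the genes of the 5 pathway lists called in both mutants. The 3 genes with the highest Pearson correlation were to be named for Carm1 and for members called alike in both mutants, which left Carm1. Marker genes are from listed cell types; those named are some that made up much of a sum or differed from it, some at or under 3 counts and some of those called, picked after their values were seen. An item withheld for evaluation is not reported here. Members and lists were chosen with earlier results of these data known. Promoter sequences are from RefSeq (GRCm38.p6). Python 3.11.15, numpy 2.4.6, pandas 2.3.3 and matplotlib 3.10.9 were used for tables and figures.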

Additional observations from a re-analysis of the deposited data

How the results depend on the processing

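Across the alternatives, single genes and peaks gave 1626 refitted values for 87 results, and 1454 of them kept their direction and their side of the threshold (624 with a higher and 830 with a lower value). Another 94 lost their call (25 higher, 69 lower), 11 gained one (4 higher, 7 lower) and 67 changed sign (46 to higher, 21 to lower). The cause of these changes was not tested. In RNA-seq the number of members called in CARM1 knockout tumors was 2 with every gene that had a count and with DESeq2, and 1 to 2 with 1 library left out; in NFIB mutant tumors it was 1 and 1, and 0 to 1. The added member was always Prmt8, which had counts in only 2 of the 3 TKO libraries. Of the member peaks, 14 were called in CARM1 knockout tumors when peaks needed at least 10 counts in every library. Not all 31 had such counts, so the 14 are not to be read as a share of 31. Over all peaks, 38831 of the 65496 with such counts were called. With totals alone the log2 fold change in CARM1 knockout tumors was -0.19 for Prmt3 and -0.19 for Prmt6 RNA, and 0.48, 0.31 and 0.33 for the promoter peaks of Prmt7, Carm1 and Prmt5. In NFIB mutant tumors it was -0.27 for Prmt2 and -0.12 for Prmt9 RNA, and 0.61, 0.14, 0.14 and 0.26 for the promoter peaks of Prmt9, Prmt7, Carm1 and Prmt5. Totals without peaks over 0.5% gave 0.27, 0.096 and 0.12 for the promoter peaks of Prmt7, Carm1 and Prmt5 in CARM1 knockout tumors and 0.40 and 0.060 for those of Prmt9 and Prmt5 in NFIB mutant tumors. Under the GC offset the promoter peaks of Prmt6, Prmt1, Prmt7, Carm1 and Prmt2 came to 0.16, 0.23, 0.61, 0.77 and 0.070 in CARM1 knockout tumors, and those of Prmt7 and Carm1 to 0.25 and 0.72 in NFIB mutant tumors. With the replicate block added to that offset the values were 0.16, 0.23, 0.61, 0.78 and 0.070, with 0.059 for Prmt8, and 0.25 and 0.71. RLE factors and DESeq2 gave -0.031 and -0.025 for the Prmt9 promoter peak in CARM1 knockout tumors, and for the log2 fold change of the Prmt8 peak 46113 bp from the gene start, NFIB mutant against TKO, -0.074 and -0.069. Values near 0 changed sign with small changes of the fit. Prmt5 RNA in NFIB mutant tumors was 0.018 with every gene that had a count and 0.003 with only the 2 genotypes compared, and the Prmt9 promoter peak was 0.007 and 0.009. At least 10 counts in every library gave 0.061 for the Prmt7 promoter peak in CARM1 knockout tumors and 0.17 for that of Prmt9 in NFIB mutant tumors. With 1 library left out at a time, where a genotype with 2 libraries shares the spread of the others, the log2 fold changes in CARM1 knockout tumors ran from -0.46 to 0.37 for Prmt2, -0.10 to 0.58 for Prmt5 and -0.065 to 0.29 for Prmt6 RNA, and the log2 fold change of the main promoter peak of Prmt9, CARM1 knockout against TKO, from -0.030 (without TKO replicate 3) to 0.42 (without TKO replicate 2). In NFIB mutant tumors they ran from -0.18 to 0.65, -0.24 to 0.24 and -0.026 to 0.40 for Prmt2, Prmt5 and Prmt9 RNA, and from -0.18 to 0.27 and -0.41 to 0.97 for the Prmt9 promoter peak and the Prmt8 peak at 46113 bp. Between the mutants they ran from -0.090 to 0.56 for Prmt5 and -0.032 to 0.39 for Prmt9 RNA. The genotypes share replicate numbers, but same-numbered libraries deviated together at correlations of -0.30 to 0.12. Not every library correlated best with its own number, though all 3 did for NFIB mutant against TKO in ATAC-seq. The labels give separate animals, the Methods name littermate controls, and whether animals of the same number were littermates is not known. Taking that number as a replicate block gave 0.060 for Prmt5 RNA and 0.031 for the Prmt9 promoter peak in NFIB mutant tumors, and left 1 RNA member called in CARM1 knockout tumors and 21 member peaks called in each mutant. The RNA of Prmt8 rests on 0 to 2 counts in the mutants.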
